A study of Mus musculus with 11 samples.

Results

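Here 10 genes of the pluripotency network were examined in epiblast stem cells (EpiSCs) of the mouse for peaks of 5 transcription factors (TFs), namely ZIC2, OTX2, SOX2, POU5F1 and POU3F1.
The genes were Nanog, Sall4, Mycn, Lin28a, Utf1, Zfp281, Dppa4, Zscan10, Tcf3 and Sall1, which are 10 of the 22367 protein-coding genes in GENCODE vM1. A peak was assigned to a gene when its midpoint lay in the gene body or within 50 kb on either side. This gave 643 of the 1003029 deposited peaks, 335 from EpiSCs and 308 from activin-free cultures. EpiSCs of the 129/Sv strain were grown without feeders in N2/B27 medium to which activin (20 ng/ml) and Fgf2 (10 ng/ml) were added. The activin-free cultures were the same cells after 18 h without activin. In each culture the cells were transiently transfected with a pCAGGS plasmid that carried a TF with a BLRP tag together with the BirA biotin ligase, and chromatin was pulled down with streptavidin. The peaks are therefore those of a tagged TF expressed from a plasmid. There was 1 library for each TF in each culture, so no value below has a replicate error, no test between cultures was possible, and every difference is a difference between libraries. Peak lists hold no RNA, so the identity of the cells was not checked against marker genes.

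EpiSCs represent the epiblast after implantation, and they share the core pluripotency factors with embryonic stem cells. SOX2 (an HMG-box protein) and POU5F1 (a POU-domain protein, also called OCT4) often bind side by side to composite elements in embryonic stem cells. ZIC2 is a zinc finger protein, OTX2 is a homeodomain protein of the epiblast and anterior neural tissue, and POU3F1 is a POU-domain protein of the epiblast and neural plate. The genes examined encode a homeodomain factor (Nanog), zinc finger proteins (Sall1, Sall4, Zfp281 and Zscan10), a Myc protein (Mycn), an RNA-binding protein that blocks maturation of let-7 (Lin28a), and chromatin-associated proteins of pluripotent cells (Utf1 and Dppa4). The symbol Tcf3 belongs to the basic helix-loop-helix gene E2A in the annotation. The HMG-box Wnt effector now named Tcf7l1 was formerly also called Tcf3, and it is given separately.

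Sequences are shown for 5 regions where the TFs met or were apart: the 300 bases upstream of the Nanog transcription start site (TSS), where ZIC2 and OTX2 had peaks without SOX2 or POU TFs, the intronic Sall4 site with 4 TFs, the Mycn upstream site with 5 TFs in activin-free culture, the intronic Sall1 site with 4 TFs, and the strongest EpiSC OTX2 peak near Dppa4, a gene without ZIC2 peaks. The Nanog, Sall4 and Mycn windows were chosen after their values were seen. All are plus-strand sequence of mm9 (NCBIM37). Capitals mark matches on either strand to GGATTA (recognized by OTX2), CAGCAGG (found at ZIC2 sites), CATTGT or CTTTGT (recognized by SOX family proteins) and ATGCAAA (an octamer sequence bound by POU TFs), and no 2 matches shown share bases.
Nanog upstream, chr6:122657207-122657506: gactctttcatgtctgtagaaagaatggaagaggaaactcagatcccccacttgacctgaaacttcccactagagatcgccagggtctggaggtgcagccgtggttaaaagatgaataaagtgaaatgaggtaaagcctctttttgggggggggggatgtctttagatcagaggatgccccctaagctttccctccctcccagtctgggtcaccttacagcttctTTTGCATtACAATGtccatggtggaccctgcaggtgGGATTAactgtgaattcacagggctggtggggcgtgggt
Sall4 intron, chr2:168587591-168587890: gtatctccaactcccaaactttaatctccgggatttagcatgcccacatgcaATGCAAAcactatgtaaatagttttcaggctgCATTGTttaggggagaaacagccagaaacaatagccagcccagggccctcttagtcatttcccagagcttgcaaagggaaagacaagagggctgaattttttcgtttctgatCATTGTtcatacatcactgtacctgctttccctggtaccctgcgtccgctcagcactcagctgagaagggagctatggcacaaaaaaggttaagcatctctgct
Mycn upstream, chr12:12950159-12950458: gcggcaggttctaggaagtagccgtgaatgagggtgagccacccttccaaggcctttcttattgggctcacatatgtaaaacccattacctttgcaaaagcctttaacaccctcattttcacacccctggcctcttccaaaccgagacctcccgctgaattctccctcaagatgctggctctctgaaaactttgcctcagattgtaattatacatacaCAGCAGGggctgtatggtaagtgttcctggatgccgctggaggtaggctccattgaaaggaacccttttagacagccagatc
Sall1 intron, chr8:91558717-91559016: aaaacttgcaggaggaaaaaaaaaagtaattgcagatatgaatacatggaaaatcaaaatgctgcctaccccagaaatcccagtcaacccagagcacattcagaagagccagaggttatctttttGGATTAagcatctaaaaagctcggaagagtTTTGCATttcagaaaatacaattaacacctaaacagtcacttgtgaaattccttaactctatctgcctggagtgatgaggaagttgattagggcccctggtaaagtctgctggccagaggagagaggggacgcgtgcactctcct
Dppa4 upstream, chr16:48247167-48247466: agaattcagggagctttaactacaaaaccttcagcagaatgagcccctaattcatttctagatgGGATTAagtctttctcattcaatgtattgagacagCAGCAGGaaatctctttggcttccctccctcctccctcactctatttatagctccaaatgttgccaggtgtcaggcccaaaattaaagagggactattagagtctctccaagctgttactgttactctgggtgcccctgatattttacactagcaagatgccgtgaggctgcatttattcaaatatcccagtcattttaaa
The Nanog sequence carried an octamer match and a SOX match 1 base apart, both on the reverse strand, and a GGATTA match downstream of them. The Sall4 sequence carried 1 octamer and 2 SOX matches. The Sall1 sequence carried GGATTA and an octamer match, and it lay under the OTX2, POU5F1 and POU3F1 peaks and beside the SOX2 peak. It is centred on the narrowest EpiSC peak of the site, that of OTX2, and the 300 bases around the bases that all 4 peaks shared (chr8:91559103-91559402) held 0 matches. The Mycn sequence carried CAGCAGG alone, although peaks of all 5 TFs covered it in activin-free culture. The Dppa4 sequence carried GGATTA and also CAGCAGG, without a ZIC2 peak. A match is a description of letters and not a binding site.

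These short sequences were common in windows of 300 bp. GGATTA was found in 37 of 107 EpiSC OTX2 peaks at the 10 genes (34.6%), in 31% of all OTX2 peaks, and in 12.6% of windows 1000 bp to either side of the 107 peaks. CAGCAGG was found in 37 of 187 ZIC2 peaks (19.8%), against 25.6% of all ZIC2 peaks and 6.95% of the adjoining windows. CATTGT was found in 9 of 20 SOX2 peaks (45%) and in 39.1% of all SOX2 peaks, and CTTTGT in 11 of 20 (55%) and 49.3%. ATGCAAA was found in 2 of 16 POU5F1 peaks (12.5%, 95% Wilson interval 3.5 to 36%) and in 19.3% of all POU5F1 peaks. The shares of OTX2 and SOX2 peaks with their own sequence were near those over all peaks of the same list. Intervals cover counting error only.

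ZIC2 and OTX2 supplied most of the 335 EpiSC peaks at the 10 genes. There were 187 ZIC2 peaks, 107 OTX2 peaks, 20 SOX2 peaks, 16 POU5F1 peaks and 5 POU3F1 peaks in EpiSCs, and 170, 75, 34, 24 and 5, respectively, in activin-free culture. POU3F1 had few peaks here although its EpiSC list was the second longest of that culture, with 112688 peaks. The lists held between 62387 (POU5F1) and 121806 (ZIC2) peaks in EpiSCs and between 87783 (SOX2) and 126751 (POU5F1) in activin-free culture. Within 50 kb of any protein-coding gene the EpiSC lists held 106282 ZIC2, 87198 OTX2, 40216 SOX2, 39557 POU5F1 and 58539 POU3F1 peaks. ZIC2 and OTX2 peaks were thus the most numerous near genes in general. Each peak has a MACS score, which grows with the negative logarithm of the caller's p-value and was at least 50 for every peak, and many of the highest scores were 3100. Sequencing depth is unknown, so the same level of binding can be called in one list and missed in another. Between 0 and 5 further protein-coding TSSs lay in a gene's window, and the gene itself had the nearest protein-coding TSS for 93 of the 187 EpiSC ZIC2 peaks and 67 of the 107 OTX2 peaks.

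**Figure D1:**
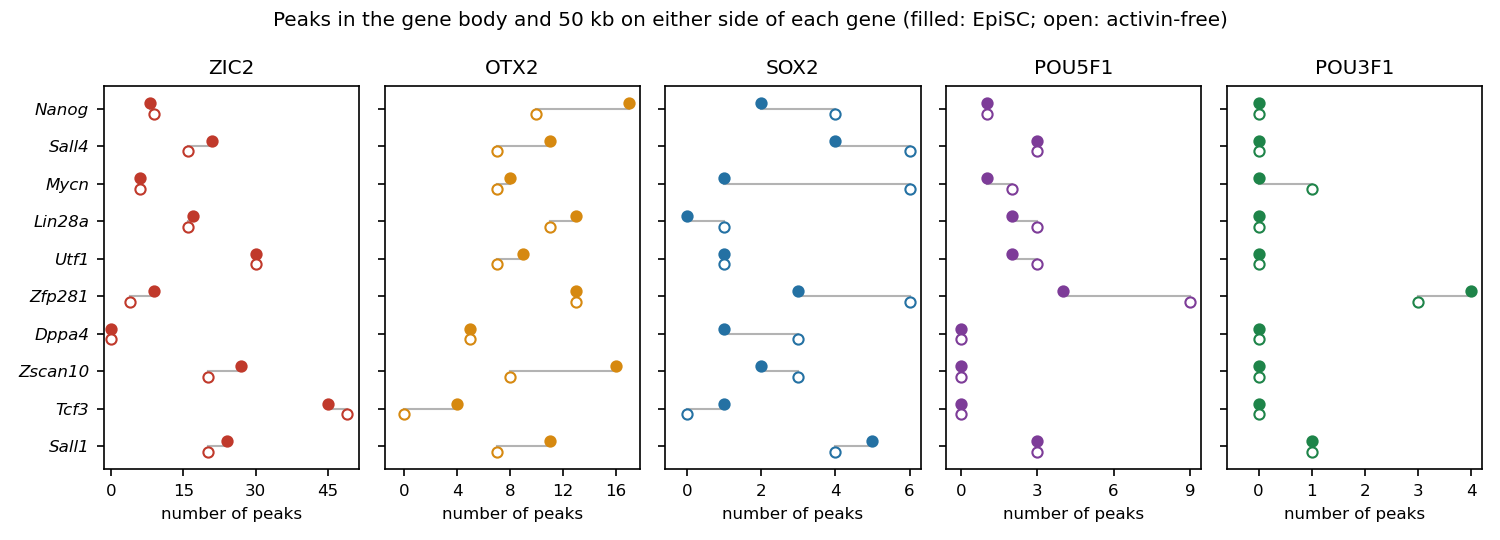
Number of peaks (horizontal axes) in the window of each gene (vertical axis) for each TF, in EpiSCs (filled points) and activin-free culture (open points), with a line joining the 2 libraries. ZIC2 ranged from 0 peaks at Dppa4 to 45 and 49 at Tcf3, and POU3F1 peaks were found only at Zfp281, Sall1 and, in activin-free culture, Mycn.

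The genes differed most in ZIC2. Tcf3 had 45 ZIC2 peaks in EpiSCs, or 36.2 per 100 kb of its window, a density above that of 99.7% of protein-coding genes. Utf1 had 30 (above 97%) and Zscan10 had 27 (above 91.3%), whereas Nanog had 8 (above 52.9%), Mycn had 6 (above 44.8%) and Dppa4 had 0. OTX2 followed another order. Nanog ranked highest with 17 OTX2 peaks, 15.9 per 100 kb and above 95.4% of genes, followed by Zscan10 with 16 (above 92.7%) and Zfp281 with 13 (above 86.4%), and Tcf3 was lowest with 4 (above 26.1%). This order held for the whole lists, since with scores of 100 or more Nanog kept 4 OTX2 peaks in EpiSCs, fewer than Lin28a and Zfp281 with 9 each, Zscan10 with 8, and Mycn and Sall4 with 5 each. Over the 10 genes the median density in EpiSCs was 16.1 per 100 kb for ZIC2 and 9.30 for OTX2, against medians of 6.80 and 6.21 over all protein-coding genes. The medians for SOX2 (1.401 against 1.444) and POU5F1 (1.34 against 1.43) lay close to those of all genes. In activin-free culture the medians were 13.6 for ZIC2 against 5.86, 6.76 for OTX2 against 5.72, 3.07 for SOX2 against 2.09 and 2.20 for POU5F1 against 2.83. The GC content of the windows ran from 43.33% at Dppa4, which had no ZIC2 peak, to 53.26% at Tcf3, which had the most, and the part of GC content in the ZIC2 order was not tested.

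Presence of a peak in a window of this size said little by itself. In EpiSCs 9 of the 10 genes had a ZIC2 peak (93.1% of all protein-coding genes), 10 an OTX2 peak (93.3%), 9 a SOX2 peak (75%), 7 a POU5F1 peak (77.3%) and 2 a POU3F1 peak (47.8%). In activin-free culture the numbers were 9 (92.3%), 9 (95.6%), 9 (85.6%), 7 (89.5%) and 3 (53%). At the TSS itself, a ZIC2 peak covered 8 of 10 genes in EpiSCs (61.6% of all genes) and 8 in activin-free culture (59.8%), the exceptions being Sall4 and Dppa4 in both. An OTX2 peak covered the TSS of Nanog, Sall4 and Zscan10 in both cultures, 3 of 10 genes, against 9.52% of all genes in EpiSCs and 9.1% in activin-free culture. No POU5F1 or POU3F1 peak covered a TSS of these genes, which was the case at 0.747% and 1.57% of all genes in EpiSCs and 1.8% and 2.89% in activin-free culture. A SOX2 peak covered the Lin28a TSS in activin-free culture (score 83.1), against 5.12% of all genes, and 0 TSSs in EpiSCs (1.44%).

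Nanog, whose product is a homeodomain factor of the core network, had ZIC2 and OTX2 at its promoter, POU5F1 far away and no POU3F1 peak in its window in either culture. The ZIC2 peak centred 0.054 kb upstream of the TSS had a score of 102 in EpiSCs, and the peak 0.121 kb upstream had a score of 302 in activin-free culture. The OTX2 peak over the same bases had scores of 210 and 161. No SOX2, POU5F1 or POU3F1 peak covered the adjacent octamer and SOX matches shown above in either culture, although this composite element is a known target of SOX2 and POU5F1 in embryonic stem cells. The nearest SOX2 peak in EpiSCs lay 3.93 kb upstream with a score of 55.2 and was not called in activin-free culture, and the nearest POU5F1 peak lay 31.0 kb upstream with scores of 94.3 and 468. A called peak is a matter of threshold and depth, so this records where peaks were listed and not that binding was absent. The strongest ZIC2 peak of the Nanog window lay 37.5 kb downstream of the TSS in an intron of Slc2a3, with scores of 939 in EpiSCs and 1138 in activin-free culture, and overlapped OTX2 in both. Of the 17 EpiSC OTX2 peaks 8 overlapped an OTX2 peak of activin-free culture, which listed 10, against 78.1% of all OTX2 peaks, and 4 of the 17 scored 100 or more.

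Sall4, which encodes a spalt-like zinc finger protein, had its highest-scoring EpiSC peaks of ZIC2 and OTX2 in and around the start of the gene. OTX2 covered the TSS with scores of 292 and 272, and ZIC2 formed a broad intronic peak of 2920 bp centred 1.91 kb downstream (score 3217 in EpiSCs, 3100 in activin-free culture). OTX2 formed a broad peak of 3409 bp centred 4.32 kb downstream, with scores of 1634 and 2188, higher than those of 99.97% and 99.95% of the peaks in its lists. At 5.70 kb downstream, in the intron, 601 bp were shared by EpiSC peaks of ZIC2 (score 302), OTX2 (the broad peak), SOX2 (139) and POU5F1 (65.2). In activin-free culture ZIC2, OTX2 and SOX2 (95.3) were listed at these bases and POU5F1 was not. The EpiSC POU5F1 peak scored higher than only 16.16% of its list, and it was lost when peaks of score 100 or more were used. A further intergenic site 23.4 kb upstream had ZIC2 (859 and 1509), OTX2 and SOX2 (71.0 and 132) in both cultures.

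Sall1, which encodes a related spalt-like protein, had a site where the POU TFs met SOX2 and OTX2 without ZIC2. In an intron 8.99 kb downstream of the TSS, EpiSC peaks of POU5F1 (score 298), POU3F1 (566), SOX2 (140) and OTX2 (98.1) formed a site of 2028 bp. The same 4 TFs were listed there in activin-free culture, with 997 for POU5F1, 601 for POU3F1 and 288 for SOX2. The EpiSC OTX2 score was just under 100, so with peaks of score 100 or more the EpiSC site held 3 TFs. In EpiSCs the POU5F1 and POU3F1 peaks coincided over most of their width, and the SOX2 and OTX2 peaks lay at opposite ends and shared 21 bp. A site 40.4 kb downstream of the TSS held ZIC2, OTX2 and SOX2 in both cultures, and its SOX2 peak was the strongest of the 10 genes, with scores of 302 and 635. ZIC2 covered the Sall1 TSS with a peak of 3140 bp (score 1653). Sall1 had no other protein-coding TSS in its window, so all 24 EpiSC ZIC2 peaks lay closest to it.

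**Figure D2:**
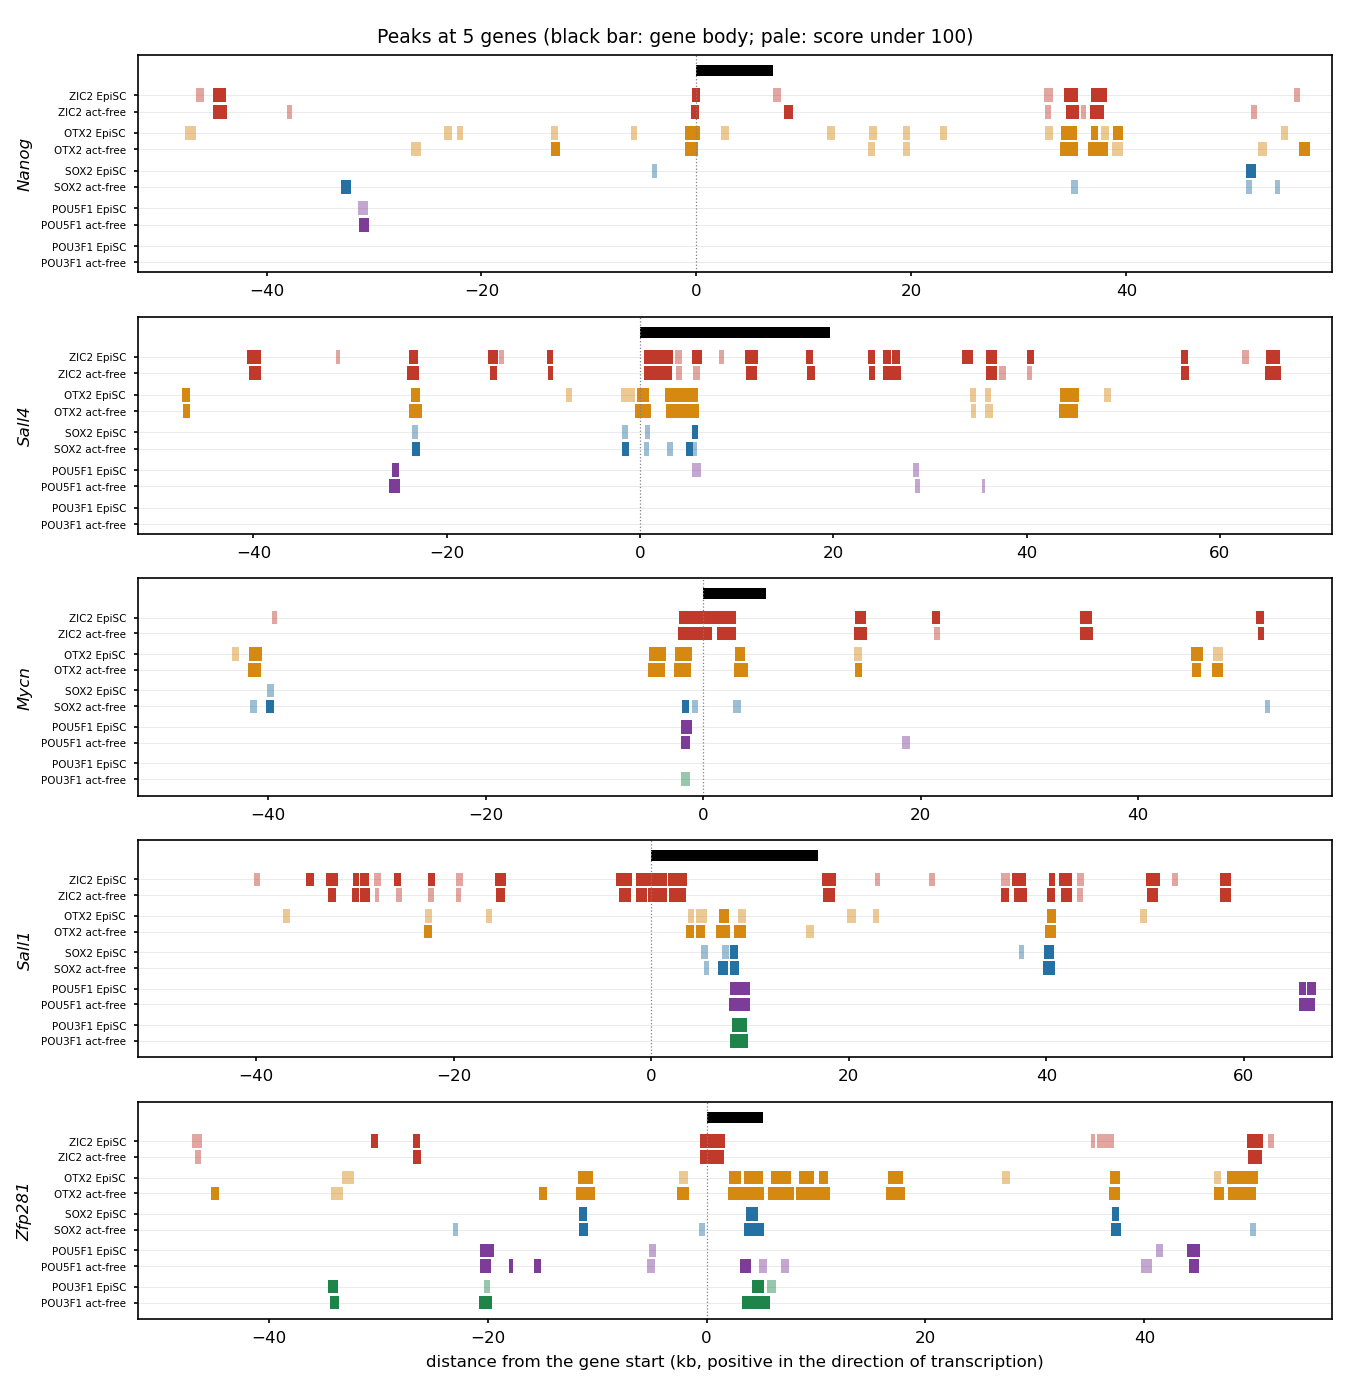
Peaks at Nanog, Sall4, Mycn, Sall1 and Zfp281 drawn to scale by distance from the TSS (horizontal axis, kb, positive in the direction of transcription), with 1 row for each TF and culture, black bars for gene bodies and pale bars for scores under 100. ZIC2 and OTX2 (upper rows) had peaks near the TSS of Sall4 and Mycn and also further out. In Sall1 the EpiSC peaks of POU5F1 and POU3F1 stacked at the site centred at 8.99 kb, with SOX2 and OTX2 at its opposite ends.

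Mycn, a proto-oncogene of the Myc family, had the only site with all 5 TFs. In EpiSCs a ZIC2 peak of 5289 bp with a score of 3204 covered the TSS and its upstream flank, and OTX2 (172) and POU5F1 (129) overlapped it 1.5 to 1.8 kb upstream. In activin-free culture the same place had ZIC2 (3100), OTX2 (191), POU5F1 (129), SOX2 (190) and POU3F1 (97.7), which shared 659 bp centred 1.59 kb upstream. The SOX2 and POU3F1 peaks had no counterpart in the EpiSC lists. The POU3F1 score was just under 100, so with peaks of score 100 or more the site held 4 TFs. With each list limited to its 50000 highest-scoring peaks, Mycn had 0 POU5F1 and 0 POU3F1 peaks in activin-free culture, so the site held at most 3. Of all activin-free SOX2 peaks 0.166% overlapped the other 4 TFs. SOX2 went from 1 to 6 peaks at Mycn, of which 2 scored 100 or more. The strongest OTX2 peak lay 41.2 kb upstream, without ZIC2, with scores of 826 and 1139.

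Zfp281, a zinc finger regulator of pluripotency genes, ranked higher among protein-coding genes in density of OTX2 and POU TF peaks than of ZIC2 peaks. OTX2 had 13 peaks in each culture, and the strongest, 11.1 kb upstream, had scores of 831 and 1264 and overlapped SOX2 (119 and 240). POU5F1 had 4 peaks in EpiSCs and 9 in activin-free culture, above 87.1% and 92% of genes in density. The activin-free POU5F1 list was the longer, and with each list limited to its 50000 highest-scoring peaks there were 2 in each culture. The strongest lay 44.5 kb downstream of the TSS, alone, with scores of 1238 and 3035. The peak 20.1 kb upstream (621 and 1981) overlapped POU3F1 (84.1 and 310). POU3F1 had 4 peaks in EpiSCs and 3 in activin-free culture, of which 0 and 2 were among the 50000 highest-scoring peaks. In the 3' part of the gene, OTX2, SOX2 (173) and POU3F1 (185) overlapped in EpiSCs, and POU5F1 (198) joined them in activin-free culture only. The ZIC2 peaks of Zfp281 numbered 9 and 4 (above 56.7% and 37.6% of genes in density), the strongest of which covered the TSS (1281 and 1539). No other protein-coding TSS lay in the window.

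Zscan10, which encodes a SCAN-domain zinc finger protein of pluripotent cells, had ZIC2 and OTX2 at its TSS in both cultures, with ZIC2 scores of 585 and 989 and OTX2 scores of 291 and 397. A SOX2 peak of score 128 overlapped them 0.502 kb into the gene in EpiSCs and was not listed in activin-free culture. It was the highest-scoring EpiSC SOX2 peak of the 10 genes without a counterpart. No POU5F1 or POU3F1 peak lay in the window in either culture. The strongest ZIC2 peak, 46.3 kb upstream, had a score of 3100 and a width of 4427 bp in EpiSCs, and the window holds 5 other protein-coding TSSs, so 7 of its 27 ZIC2 peaks were closest to Zscan10.

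Lin28a, the let-7 antagonist, had a ZIC2 peak of 3159 bp over its TSS with a score of 3100 in both cultures. No OTX2 peak covered the TSS, and the strongest lay 15.8 kb downstream of it in EpiSCs (430) and 15.9 kb upstream in activin-free culture (502). POU5F1 overlapped ZIC2 6.77 kb upstream, with scores of 89.3 and 425. SOX2 was not listed in EpiSCs and had 1 peak, at the TSS, in activin-free culture. A second ZIC2 peak of high score (2820 and 3100) lay at the neighbouring gene Hmgn2, 50.9 kb downstream. OTX2 overlapped it in both cultures (118 in EpiSCs). In each culture 3 ZIC2 peaks of the window overlapped OTX2.

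Utf1, a short gene whose SOX2 and POU5F1-bound enhancer in embryonic stem cells lies 3' of the gene, had ZIC2 over the TSS (1261 and 882) and OTX2 over the 3' flank. The EpiSC OTX2 peak began at the last bases of the gene, spanned 6271 bp and scored 1550, above 99.96% of its list. In activin-free culture it was 4656 bp wide with a score of 1599. A further EpiSC ZIC2 peak (591) overlapped OTX2 in that flank, and no SOX2 or POU5F1 peak was listed there. The strongest ZIC2 peaks of the window had scores of 2786 in EpiSCs and 3100 in activin-free culture. The EpiSC POU5F1 peaks of the window lay in introns of the neighbour Kndc1, 12.6 kb upstream (968 and 2144) and 14.0 kb upstream (397 and 991), each overlapping ZIC2. Activin-free culture listed a further POU5F1 peak 34.4 kb upstream (340), also in Kndc1, without ZIC2. The only SOX2 peak lay 38.8 kb upstream, also in Kndc1 (91.8 and 238).

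Dppa4, which encodes a nuclear protein of pluripotent cells, had 6 peaks in EpiSCs and 8 in activin-free culture, the fewest of the 10 genes. All were OTX2 or SOX2 peaks. OTX2 peaks lay 36.5 kb upstream (238 and 318) and 30.6 kb upstream (171 and 318), and a SOX2 peak of score 117 joined the latter in activin-free culture. Within the gene only an EpiSC OTX2 peak of score 50.7 was listed. Its window overlaps that of Dppa2.

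Tcf3 was the reverse of Dppa4. ZIC2 peaks covered 59.7% of its window in EpiSCs and 49.8% in activin-free culture, and the strongest EpiSC peak lay 3.31 kb into the gene (2741). The 4 EpiSC OTX2 peaks, with scores from under 100 to 168, had no counterpart, and activin-free culture listed 0 OTX2 peaks in the window. Of the 17456 gene windows with 4 or more EpiSC OTX2 peaks, 25 (0.143%) had none in activin-free culture. The cut of 4 was set at the count of Tcf3 itself, and windows with more peaks are included. This share therefore does not measure how unusual Tcf3 was. A SOX2 peak of score 55.8 in EpiSCs was also without a counterpart, and it overlapped ZIC2. OTX2 overlapped 3 of the 45 EpiSC ZIC2 peaks of the window. Tcf7l1 had 32 ZIC2 peaks in EpiSCs and 30 in activin-free culture over a window of 262.9 kb, with a ZIC2 peak over its TSS in both.

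**Figure D3:**
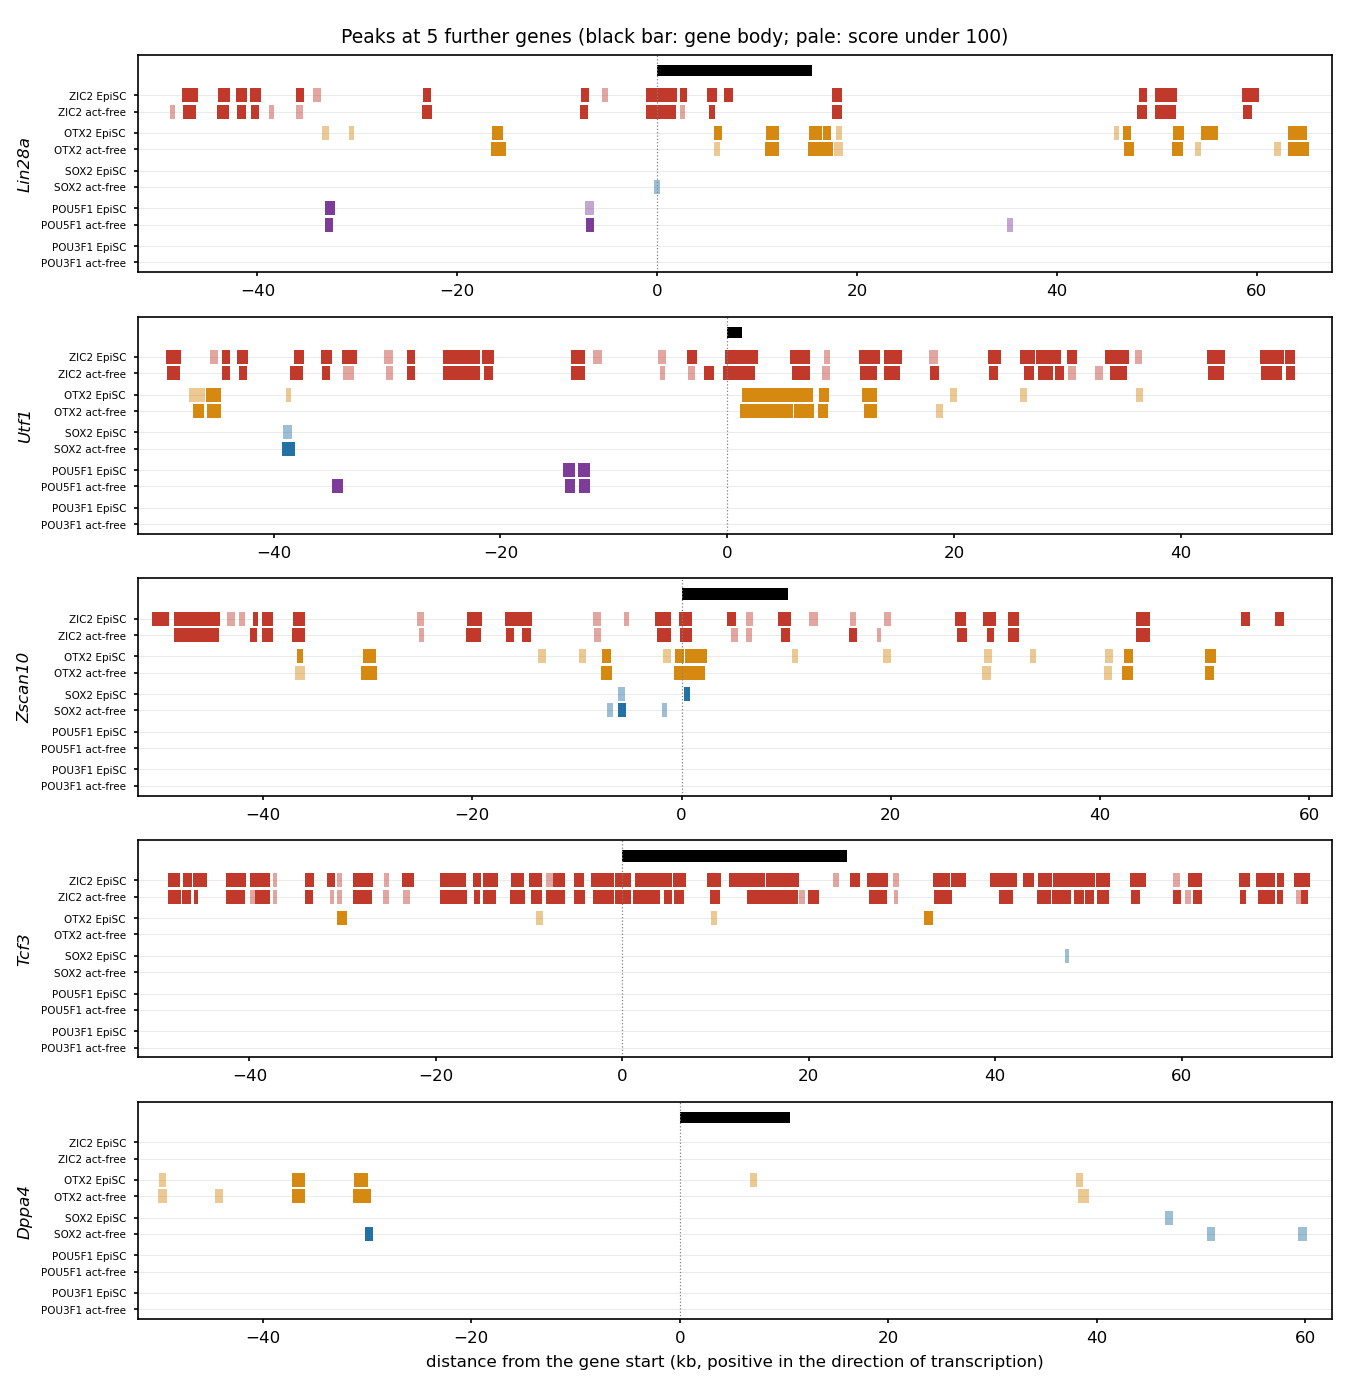
Peaks at Lin28a, Utf1, Zscan10, Tcf3 and Dppa4 drawn to scale by distance from the TSS (horizontal axis, kb, positive in the direction of transcription), with 1 row for each TF and culture, black bars for gene bodies and pale bars for scores under 100. ZIC2 peaks tile the Tcf3 window (59.7% covered in EpiSCs) and are missing at Dppa4, and the OTX2 peak of 6271 bp lies on the 3' side of Utf1.

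Peaks of different TFs were then compared for overlap by at least 1 bp. In EpiSCs 38 of 187 ZIC2 peaks at the 10 genes overlapped OTX2, which was 20.3% (95% Wilson interval 15.2 to 26.7%), against 14.8% of all ZIC2 peaks. Conversely 38 of 107 OTX2 peaks overlapped ZIC2, which was 35.5% (27.1 to 44.9%), against 17.8% of all OTX2 peaks and 19.5% of those within 50 kb of any protein-coding gene. In activin-free culture the shares were 15.3% (12.7% of all) for ZIC2 and 36% (12% of all) for OTX2. In total 9 genes had such an overlap in EpiSCs and 8 in activin-free culture, against 69.1% and 64.7% of all protein-coding genes. Dppa4 had none in either culture and Tcf3 had none in activin-free culture. The other TFs overlapped few ZIC2 peaks in EpiSCs, with SOX2 at 10 of 187 (2.74% of all ZIC2 peaks) and POU5F1 at 4 (2.85%). OTX2 peaks were overlapped by SOX2 at 14 of 107 (7.58% of all OTX2 peaks), by POU5F1 at 4 (4.9%) and by POU3F1 at 3 (7.06%).

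SOX2 peaks at these genes mostly coincided with the same TFs. Of 20 EpiSC SOX2 peaks, 13 overlapped OTX2 (65%, 43.3 to 81.9%), against 12.3% of all SOX2 peaks and 16.1% of those near protein-coding genes. There were 10 that overlapped ZIC2 (50%, 29.9 to 70.1%), against 5.27% and 7.21%. In activin-free culture 19 of 34 overlapped OTX2 (55.9%, against 16.7% of all) and 15 overlapped ZIC2 (44.1%, against 6.09%). SOX2 overlapped ZIC2 and OTX2 together at Sall4, Zfp281, Zscan10 and Sall1 in EpiSCs, 4 of 10 genes against 11.1% of all genes. In activin-free culture this held for Nanog, Sall4, Mycn, Zfp281 and Sall1, 5 of 10 against 15.8%. ZIC2 peaks covered 21% of the bases of the 10 windows in EpiSCs and OTX2 peaks covered 9.68%. How much of the SOX2 shares goes with this coverage was not tested. When an overlap had to cover 50% of both peaks, the EpiSC shares of SOX2 peaks were 50% with OTX2 (6.15% of all) and 15% with ZIC2 (1.49% of all), and those in activin-free culture were 17.6% (7.004% of all) and 11.8% (2.21% of all).

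POU5F1 peaks, in contrast, overlapped POU3F1 at these genes in a lower share than over the whole POU5F1 lists. Of 16 EpiSC POU5F1 peaks, 2 overlapped POU3F1 (12.5%, 3.50 to 36.0%), against 51.7% of all POU5F1 peaks and 45.9% of those near protein-coding genes. In activin-free culture 5 of 24 did (20.8%, 9.24 to 40.5%), against 46.3% of all. EpiSC POU3F1 peaks lay at Zfp281 and Sall1 alone, where POU5F1 had 4 and 3 peaks. POU3F1 peaks covered 0.443% of the bases of the 10 windows in EpiSCs and 0.643% in activin-free culture. How much of the low POU5F1 shares goes with this scarcity was not tested. The lower share did not hold for the few POU3F1 peaks. Of these, 2 of 5 overlapped POU5F1 in EpiSCs (40%, against 28% of all) and 4 of 5 in activin-free culture (80%, against 54.6%). POU5F1 overlapped SOX2 in 2 of 16 peaks in EpiSCs (8.02% of all) and 4 of 24 in activin-free culture (10.1% of all). POU5F1 overlapped ZIC2 in 5 of 16 (31.3%, 14.2 to 55.6%), against 5.26% of all, which came down to 1 of 16 where 50% of both peaks had to overlap (0.856% of all). It overlapped OTX2 in 4 of 16 (7.86% of all). ZIC2 and POU3F1 shared 0 of 187 ZIC2 peaks in EpiSCs (upper bound 2.01%), against 1.16% of all, and 1 of 170 in activin-free culture, at Mycn, against 1.89%. Of the 5 EpiSC POU3F1 peaks, 3 overlapped OTX2 (6.38% of all), 2 overlapped SOX2 (9.81%) and 0 overlapped ZIC2 (1.27%). With 5 peaks these shares have wide intervals.

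**Figure D4:**
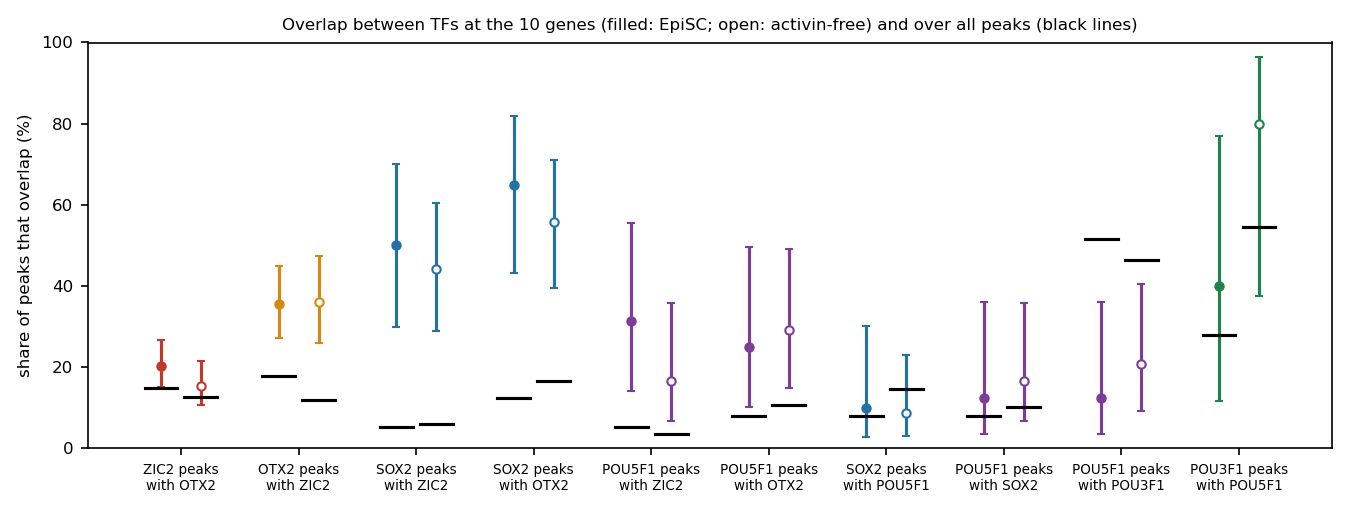
Share of the peaks of one TF that overlap a second TF (vertical axis, percent) at the 10 genes, in EpiSCs (filled points) and activin-free culture (open points), with 95% Wilson intervals for counting error and black lines for the share over all peaks of the list. SOX2 peaks with ZIC2 (50%) or OTX2 (65%) lie above the lines in EpiSCs, and POU5F1 peaks with POU3F1 (12.5%) lie under them.

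When overlapping peaks were merged, the 10 windows held 266 sites in EpiSCs, of which 216 had 1 TF, 42 had 2, 6 had 3 and 2 had 4. The sites with 4 TFs were at Sall4 and Sall1, and neither held 4 when peaks of score 100 or more were used. In activin-free culture there were 236 sites, of which 196 had 1 TF, 29 had 2, 8 had 3, 2 had 4 and 1, at Mycn, had 5. At least 2 TFs were thus found at 18.8% of the EpiSC sites and at least 3 at 3.01%, near the 17.8% and 2.75% of all sites within 50 kb of protein-coding genes. In activin-free culture it was 16.9% and 4.66%, against 22% and 4.87%. Sites with at least 4 TFs were 0.752% in EpiSCs (0.381% of those near protein-coding genes) and 1.27% in activin-free culture (0.907%), and rest on 2 and 3 sites.

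Single peaks that overlapped at least 3 other TFs numbered 1 to 4 in each list. In EpiSCs the counts were 1 of 187 for ZIC2 (0.236% of its whole list), 2 of 107 for OTX2 (0.755%), 2 of 20 for SOX2 (0.969%), 2 of 16 for POU5F1 (1.18%) and 1 of 5 for POU3F1 (0.753%). In activin-free culture they were 1 of 170 for ZIC2 (0.605%), 3 of 75 for OTX2 (2.05%), 3 of 34 for SOX2 (2.24%), 4 of 24 for POU5F1 (1.76%) and 3 of 5 for POU3F1 (2.49%).

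Finally the cultures were compared. In EpiSCs 152 of 187 ZIC2 peaks overlapped a ZIC2 peak of activin-free culture (81.3%, 75.1 to 86.2%), near the 78.9% of all ZIC2 peaks. For SOX2 it was 15 of 20 (75%, against 77.6%), for POU5F1 14 of 16 (87.5%, against 98.3%) and for POU3F1 5 of 5 (against 82.6%). The POU5F1 peaks without a counterpart were the Sall4 peak of score 65.2 and a Zfp281 peak of score 59.5. In the other direction 159 of 170 activin-free ZIC2 peaks were present in EpiSCs (93.5%, against 91.2%), 16 of 34 SOX2 peaks (47.1%, against 55.9%), 14 of 24 POU5F1 peaks (58.3%, against 47.1%) and 4 of 5 POU3F1 peaks (against 86.8%). The activin-free lists of SOX2 and POU5F1 were longer over the whole genome.

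The OTX2 shares at these genes departed from those of the whole OTX2 lists. Of its EpiSC peaks at the 10 genes 68 of 107 overlapped an activin-free OTX2 peak (63.6%, 54.1 to 72.1%), against 78.1% of all OTX2 peaks. Of the activin-free peaks 65 of 75 were present in EpiSCs (86.7%, 77.2 to 92.6%), against 67.5% of all. Within 50 kb of any protein-coding gene these shares were 77% of EpiSC and 71.3% of activin-free OTX2 peaks. The number of OTX2 peaks was lower in activin-free culture at 8 genes, equal at Zfp281 and Dppa4 and higher at 0, whereas over all protein-coding genes it was lower at 48.6% and higher at 35.4%. Among the EpiSC peaks the difference from the whole list lay in peaks of low score. Among EpiSC OTX2 peaks of score 100 or more, 47 of 50 overlapped an activin-free peak of any score (94%, against 94.3% of all). Of those under 100, 21 of 57 did (36.8%, against 62.2% of all). Among the activin-free peaks it was seen in both classes, with 52 of 55 of score 100 or more present in EpiSCs (94.5%, against 85.4% of all) and 13 of 20 under 100 (65%, against 43.7%). Counting only scores of 100 or more reversed the direction, with 50 OTX2 peaks in EpiSCs and 55 in activin-free culture, fewer at 3 genes and more at 5. The whole OTX2 lists also held more such peaks in activin-free culture, 64932 against 51050 in EpiSCs. Activin-free OTX2 peaks were also wider (median 1034 bp against 803 bp over the whole lists), and the bases of the 10 windows they covered went from 9.68% to 8.64%.

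SOX2 had more peaks in activin-free culture at 7 of the 10 genes (57.6% of all genes) and fewer at 2 (13.5%), and POU5F1 had more at 4 (73%) and fewer at 0 (1.31%). ZIC2 had more at Nanog and Tcf3, 2 genes (17%), and fewer at 5 (55%). Shares near those of all genes are not particular to these genes. The highest-scoring activin-free peaks without an EpiSC counterpart were a POU5F1 peak 34.4 kb upstream of Utf1 (340), the POU5F1 peak in Zfp281 (198), a ZIC2 peak 8.56 kb downstream of the Nanog TSS (192) and the SOX2 peak upstream of Mycn (190). The highest EpiSC peak missing from activin-free culture was an OTX2 peak 55.3 kb downstream of the Lin28a TSS (241).

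**Figure D5:**
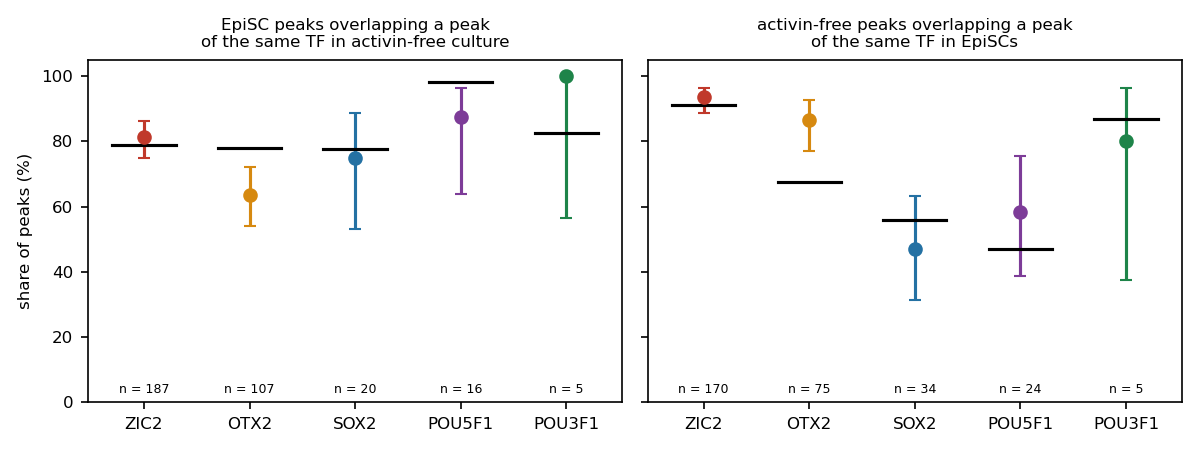
Share of peaks at the 10 genes (vertical axis, percent) that overlap a peak of the same TF in the other culture, for EpiSC peaks (left) and activin-free peaks (right), with 95% Wilson intervals for counting error, the number of peaks under each point and black lines for the share over all peaks of the list. OTX2 lies under the line for EpiSC peaks (63.6%) and above it for activin-free peaks (86.7%).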

How the data were processed

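The authors used Bowtie2 for alignment to mm9 and MACS1.4 for peak calling against sequenced input DNA, with default settings apart from the band width. Each deposited list gives peak positions and a score, which MACS defines as 10 times the negative log10 of the p-value. The input control was not analysed here. Peaks on chromosomes 1 to 19, X and Y were used, converted to positions counted from 1. Genes came from GENCODE vM1 and sequence from NCBIM37, the same assembly as mm9. A peak belonged to a gene when its midpoint lay in the gene body or 50 kb on either side. Overlap required 1 bp. A counterpart is an overlapping peak of the same TF in the other culture. Shares carry 95% Wilson intervals for counting error and stand beside the same share over all peaks or genes. With 1 library per TF and culture, nothing was tested. All 10 genes are named. For each gene the highest-scoring peak of each TF, the peak nearest the TSS and the site with most TFs could be named. Not all of these are given. Further peaks, Slc2a3, and the Nanog, Sall4 and Mycn sequences were named after their values were seen. The genes, lists and alternatives were chosen with earlier results of these data known. The alternatives were a score of at least 100, the 50000 highest-scoring peaks, windows of 20 or 100 kb, reciprocal overlap of 50%, and Tcf7l1 in place of Tcf3. For 3 pairs of TFs these were run after the results were seen. The overlap code was checked on simulated lists. Calculations used Python 3.11.15, numpy 2.4.6, scipy 1.17.1 and matplotlib 3.10.9.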

Additional observations from a re-analysis of the deposited data

How the results depend on the processing

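No paired analysis was possible because each TF has 1 library in each culture, so no replicate could be left out either. Changes of result were read against the counting interval of the value, and the causes of those below were not tested, apart from what a stricter list does by its construction. Windows of 100 kb moved none of the densities, culture shares and pair shares that were recomputed past its interval. Medians, percentiles, TSS counts, merged sites and the pairs not named here were not recomputed under the alternatives. With scores of at least 100, EpiSC peaks kept in activin-free culture were 88% for OTX2 and 100% for POU5F1, and activin-free OTX2 peaks present in EpiSCs were 76.4%. Here the higher score was required of the peaks in both cultures, unlike in the shares by score given earlier, which counted counterparts of any score. ZIC2 peaks with OTX2 in EpiSCs became 12.2%. Peaks per 100 kb became 12.4 and 11.6 for ZIC2 in EpiSCs and activin-free culture, 4.48 and 4.93 for OTX2 and 0.717 and 1.34 for SOX2. With the 50000 highest-scoring peaks, the kept share of OTX2 was 82%, and activin-free peaks present in EpiSCs were 33.3% for POU3F1, 90.9% for POU5F1 and 72.2% for SOX2. POU3F1 with POU5F1 in EpiSCs rested on 1 peak (100%). Densities became 8.33 and 8.24 for ZIC2, 4.48 and 4.12 for OTX2, 0.0896 for POU3F1 in EpiSCs, and 0.985 for POU5F1 and 1.61 for SOX2 in activin-free culture. Windows of 20 kb gave, in activin-free culture, 47.4% of OTX2 with ZIC2, 23.7% of ZIC2 with OTX2 and 100% of POU3F1 with POU5F1. Reciprocal overlap of 50% gave 15.9% and 16% of OTX2 with ZIC2 in EpiSCs and activin-free culture, 9.63% and 7.06% of ZIC2 with OTX2, 4.17% of POU5F1 with SOX2 and 2.94% of SOX2 with POU5F1 in activin-free culture, and 82.9% of activin-free ZIC2 peaks present in EpiSCs. The overlap of ZIC2 and POU3F1 in activin-free culture fell to 0 of either list with the higher score, the 50000 highest peaks or reciprocal overlap. The pairs of SOX2 with OTX2 or ZIC2 and of POU5F1 with ZIC2 were added after seeing the data. In activin-free culture SOX2 with OTX2 became 72.2% with the 50000 highest peaks and 17.6% with reciprocal overlap. SOX2 with ZIC2 became 29.4% and 15% in EpiSCs and 22.2% and 11.8% in activin-free culture under these settings, and 26.7% there with the higher score. POU5F1 with ZIC2 became 62.5% in EpiSCs with 20 kb, and 6.25% and 0% in EpiSCs and activin-free culture with reciprocal overlap. With Tcf7l1 in place of Tcf3, ZIC2 density was 13.9 in EpiSCs and 12.0 in activin-free culture. The number of genes with an overlap of ZIC2 and OTX2 stayed within 1.5 times under each alternative. Of the 100 peak counts by gene, TF and culture, 39 moved with the higher score, 46 with the 50000 highest peaks and 50 with either other window.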

Other observations

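The 14 related genes Lin28b, Dppa2, Myc, Mycl1, Sall2, Zfp148, Tcf12, Tcf7l1, Tdgf1, Trim71, L1td1, Gdf3, Foxd3 and Rif1 were read in the same way. A ZIC2 peak overlapped OTX2 at 12 of them in each culture, against 69.1% of all protein-coding genes in EpiSCs and 64.7% in activin-free culture. A ZIC2 peak covered the TSS of 11 in EpiSCs (61.6% of all genes) and 10 in activin-free culture (59.8%). The Myc family genes Myc and Mycl1 had ZIC2 and OTX2 peaks over the TSS in both cultures, whereas the Mycn TSS had ZIC2 alone. Sall2, unlike Sall1, had no peak over its TSS in either culture. Dppa2, which neighbours Dppa4 and has a window overlapping its own, also had 0 ZIC2 peaks. The median density in EpiSCs was 4.35 ZIC2 and 7.64 OTX2 peaks per 100 kb, against 16.1 and 9.30 at the 10 genes above. POU3F1 peaks were listed at 8 of the 14 in EpiSCs, against 2 of the 10 and 47.8% of all protein-coding genes. The windows of the related genes were up to 367.6 kb long (Tcf12), against at most 124.1 kb (Tcf3) at the 10 genes. How much of the POU3F1 count goes with window length was not tested.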
